A study of Homo sapiens with 9 samples.

Results

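In the small cell lung cancer line DMS273, of human origin, 46 genes of the 67140 in the count table differed from control in the same direction and to nearly the same extent after knockout of ATG7 and after knockout of both ATG7 and SQSTM1. These 46 are the subject here, and they were selected on the values given below. Counts were divided by each library's total and scaled to CPM, the counts per 1000000 counts of that library, and a gene was kept if its highest group mean was at least 5 CPM and both knockouts were at least 2-fold from control in 1 direction. Group means had 0.5 CPM added before the log2 ratio was taken. The knockouts had to lie within 0.5 of each other on the log2 scale, every library of both knockouts had to lie beyond every control library, and ATG7 itself was left out. Of 12449 genes that reached the level floor, 26 were chosen as higher and 20 as lower in both knockouts. Because all 3 contrasts chose the members, their levels and differences are descriptions with no test.

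ATG7 KO cells carry a CRISPRv2 knockout of ATG7, ATG7/SQSTM1 KO cells carry knockouts of both genes, and control cells carry a scrambled guide and are labelled wild type. Each group has 3 RNA-seq libraries, made from total RNA after depletion of rRNA, with no drug treatment in the libraries used here. The labels say neither whether a group is a clone or a pool nor whether its libraries come from separate cultures, so the p-values reflect the spread among the libraries at hand and nothing beyond it. Depth was between 28675576 and 34222098 counts per library. ATG7 stood at 11.8, 9.75 and 12.8 CPM in ATG7 KO, at 11.3, 10.5 and 10.2 CPM in ATG7/SQSTM1 KO, and at 28.3, 26.7 and 27.1 CPM in control. SQSTM1 stood at 381, 386 and 382 CPM in ATG7 KO, at 55.5, 49.3 and 52.0 CPM in ATG7/SQSTM1 KO, and at 383, 379.8 and 377 CPM in control, so no library went against its label.

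ATG7 is the E1-like enzyme that activates ATG12 and the LC3 family, the ubiquitin-like proteins that build and load the autophagosome. SQSTM1, also called p62, delivers ubiquitylated cargo to it, is degraded with that cargo, and collects in cells whose autophagy is blocked. At p62 bodies signalling proteins are bound as well, among them KEAP1, the inhibitor of NRF2. By its label, the double knockout is meant to lack this receptor as well as the pathway. Neither protein nor autophagy was measured in the libraries used here.

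The labelled cell type was read from its markers. NEUROD1, a transcription factor that defines 1 neuroendocrine class of this cancer, averaged 71.9 CPM in ATG7 KO, 239 CPM in ATG7/SQSTM1 KO and 196 CPM in control. The summed level of 22 neuroendocrine markers ran from 549 to 566 CPM in ATG7 KO, from 1027 to 1047 CPM in ATG7/SQSTM1 KO and from 921 to 964 CPM in control. The knockouts thus stood on opposite sides of control for this sum, in which UCHL1 (395 CPM in control) and NEUROD1 weigh most. Single markers did not all do so. Of 20 tested, edgeR, described below, called 3 higher and 16 lower in ATG7 KO, and 9 higher and 5 lower in ATG7/SQSTM1 KO. Over all tested genes it called 28.4% higher and 28.3% lower, and 19.0% and 19.6%. INSM1 was below control in both (30.0, 73.7 and 90.1 CPM in ATG7 KO, ATG7/SQSTM1 KO and control) and RET above it in both. None of the 22 is a member. The summed level of 20 non-neuroendocrine markers lay above control in both knockouts. It ran from 2315 to 2335 CPM in ATG7 KO, from 1339 to 1389 CPM in ATG7/SQSTM1 KO and from 1183 to 1189.8 CPM in control. Of 19 tested, edgeR called 19 higher in ATG7 KO, and 13 higher and 4 lower in ATG7/SQSTM1 KO. None of these 20 is a member either.

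By group means, 339 genes past the level floor lay 2-fold or more above control and 677 lay as far below it in ATG7 KO, and 128 lay above and 72 below in ATG7/SQSTM1 KO. Both comparisons use the same 3 control libraries, so they are not independent of each other. Without the limit on the distance between knockouts the rule kept 50 higher and 33 lower genes. Of the 24 higher genes this limit removed, 22 were further from control in ATG7 KO and 2, POSTN and DCN, were further in ATG7/SQSTM1 KO. Of the 13 lower genes it removed, 9 were further from control in ATG7 KO and 4 in ATG7/SQSTM1 KO.

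Over the 26 higher members the log2 difference from control ran from 1.08 to 2.78 in ATG7 KO (median 1.34) and from 1.00 to 2.96 in ATG7/SQSTM1 KO (median 1.39). Over the 20 lower members it ran from −3.15 to −1.03 in ATG7 KO (median −1.48) and from −3.06 to −1.02 in ATG7/SQSTM1 KO (median −1.33). The edgeR quasi-likelihood test, at a Benjamini-Hochberg adjusted p below 0.05, called 26 of 26 higher members higher in both comparisons. Over all 18847 tested genes it called 28.4% higher in ATG7 KO and 19.0% higher in ATG7/SQSTM1 KO. It called 19 of 20 lower members lower in ATG7 KO, where 28.3% of all tested genes were called lower, and 18 of 20 in ATG7/SQSTM1 KO, where 19.6% were. Between the knockouts, edgeR called 17 of the higher members (3 higher and 14 lower in ATG7/SQSTM1 KO) and 7 of the lower members (4 higher and 3 lower), against 60.5% of all tested genes in either direction. Since the rule used these contrasts, nothing is read from these counts. The coefficient of variation within a group of 3 libraries had a median of 4.45% over the higher members and of 9.12% over the lower members.

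**Figure D1:**
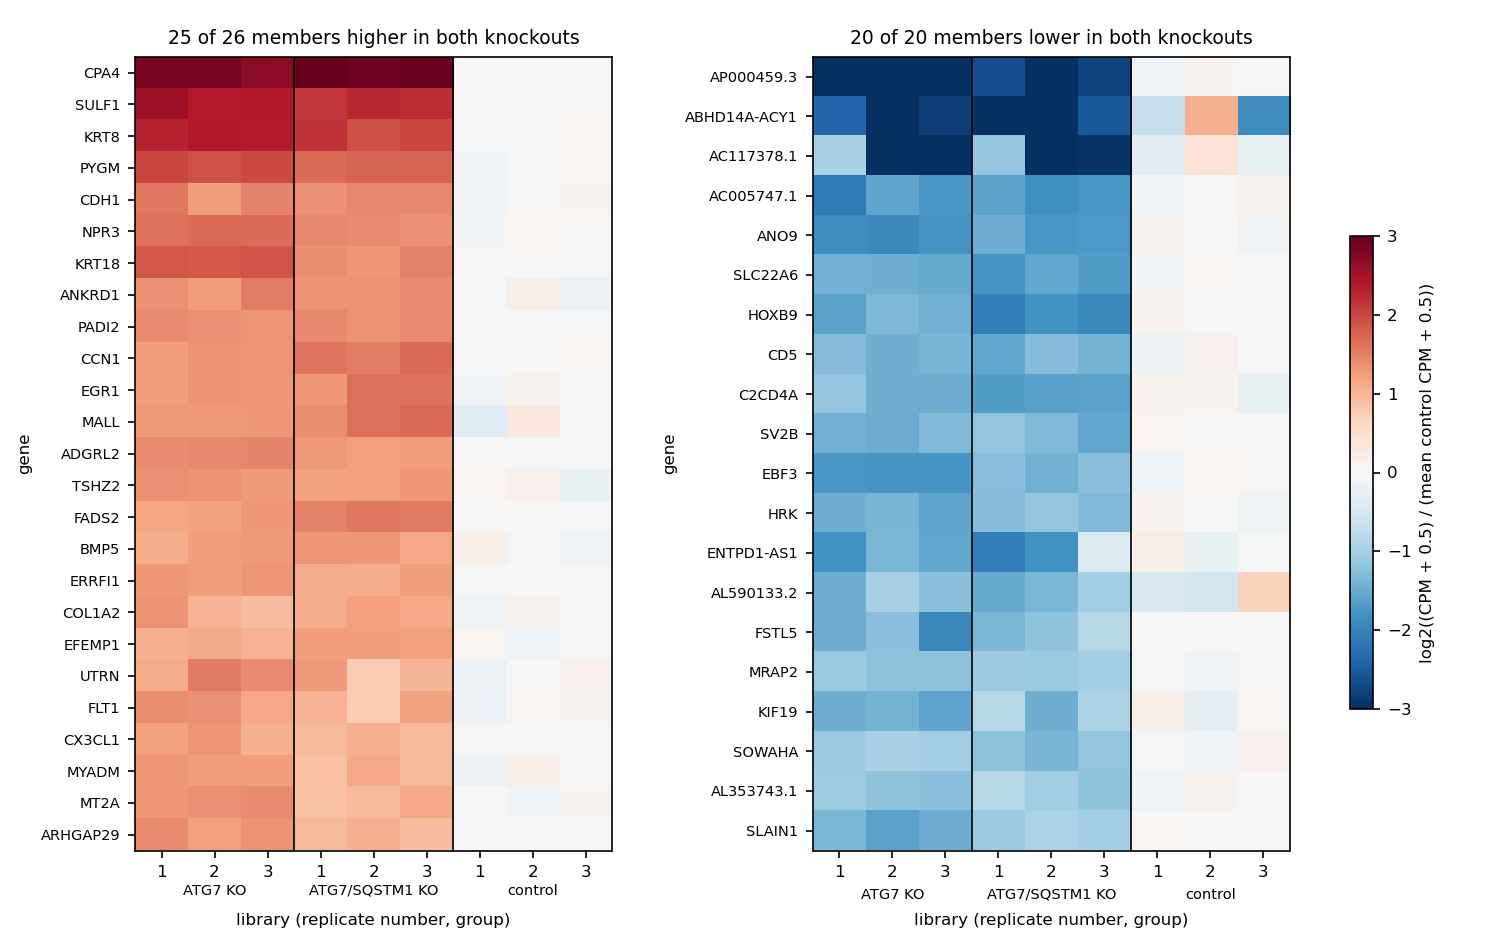
Level of each member (rows) in each of the 9 libraries (columns), as log2 of CPM + 0.5 over the mean control CPM + 0.5, with colours ending at −3 and 3. Higher members (25 of 26) are on the left and the 20 lower members on the right, each ordered by the smaller of its differences from control; single libraries that stand apart are visible for ABHD14A-ACY1, AC117378.1, ENTPD1-AS1 and AL590133.2.

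**Figure D2:**
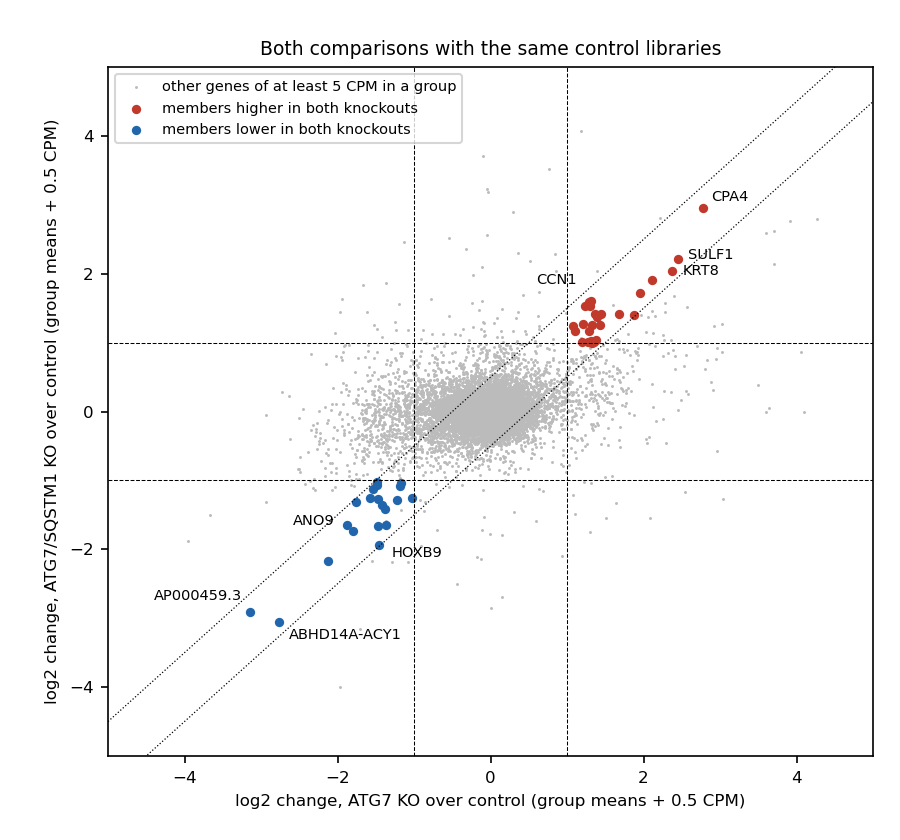
Log2 difference from control in ATG7 KO (horizontal axis) and in ATG7/SQSTM1 KO (vertical axis) for genes of at least 5 CPM in a group, with the members in colour. Dashed lines mark 2-fold and dotted lines a distance of 0.5 between the knockouts; both axes use the same control libraries, so the slant of the cloud is not read as a result.

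Promoter sequence was not used by the rule and is shown first for 4 protein coding members whose start in RefSeq lay within 30 bases of that in GENCODE 29. They were chosen after their letters were seen, and each holds a TATA box. BMP5 also holds one and is not printed. MRAP2, with a start as close, holds AP-1 letters and no TATA box. ERRFI1, PADI2, EGR1, HRK and the nearest window of ADGRL2, with starts as close, hold none of the 4 motifs marked. Each run gives the 250 bases before the RefSeq start (GRCh38.p14), 5′ to 3′ on the gene's strand, ending at the base before the start. Capitals mark every match, on either strand, to AP-1 (TGANTCA), TEAD (GGAATG), the cAMP response element (TGACGTCA) and the TATA box (TATAAA). CPA4 (chr7:130292911-130293160, plus strand) and FLT1 (chr13:28495129-28495378, minus strand) are higher members, and C2CD4A (chr15:62066727-62066976, plus strand) and SLC22A6 (chr11:62984968-62985217, minus strand) are lower members.
CPA4: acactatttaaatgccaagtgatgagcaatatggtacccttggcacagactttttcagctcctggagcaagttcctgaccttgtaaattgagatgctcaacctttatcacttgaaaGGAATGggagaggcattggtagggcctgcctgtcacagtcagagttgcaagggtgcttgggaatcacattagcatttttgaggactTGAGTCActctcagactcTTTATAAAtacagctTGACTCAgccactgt
FLT1: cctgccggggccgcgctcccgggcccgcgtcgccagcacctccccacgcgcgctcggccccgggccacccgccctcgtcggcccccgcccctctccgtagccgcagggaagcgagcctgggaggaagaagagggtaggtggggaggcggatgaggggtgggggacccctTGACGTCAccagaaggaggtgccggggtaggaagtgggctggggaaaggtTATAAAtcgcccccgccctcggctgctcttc
C2CD4A: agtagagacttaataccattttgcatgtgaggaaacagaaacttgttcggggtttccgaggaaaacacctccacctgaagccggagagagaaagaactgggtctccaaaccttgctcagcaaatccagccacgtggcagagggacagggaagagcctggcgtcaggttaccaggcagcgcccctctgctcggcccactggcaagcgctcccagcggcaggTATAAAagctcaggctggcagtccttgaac
SLC22A6: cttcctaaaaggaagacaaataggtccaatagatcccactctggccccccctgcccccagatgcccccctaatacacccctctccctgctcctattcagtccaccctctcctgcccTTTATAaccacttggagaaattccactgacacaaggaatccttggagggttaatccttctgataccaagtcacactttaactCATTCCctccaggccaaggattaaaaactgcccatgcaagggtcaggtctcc
The CPA4 window holds AP-1 letters that begin 48 and 15 bases before the start, TEAD letters 134 bases before it, and a TATA box read on both strands in overlapping letters 30 and 28 bases before it. The FLT1 window holds the cAMP response element at 81 and a TATA box at 31 bases before the start. The C2CD4A window holds a TATA box at 30 bases, and the SLC22A6 window holds TEAD letters at 52 and TATA letters at 134 bases before the start.

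Over all members, 28 of 46 symbols had at least 1 window in RefSeq, 17 higher members with 32 windows and 11 lower members with 17 windows. A gene with several starts gives several windows, which can overlap. TATA box letters were in 8 windows of higher members (25.0%) and in 4 of lower members (23.5%), against 5.72% of 14211 windows of 9602 genes past the level floor. They began 28 to 31 bases before the start in CPA4, FLT1, MT2A, SLAIN1 and C2CD4A. In ADGRL2, BMP5, UTRN, MYADM, TSHZ2, SLC22A6 and SV2B they began 118 to 215 bases before it. Positions in the windows of all genes were not compared. AP-1 letters were in 3 windows of higher members (9.38%) and 1 of lower members (5.88%), against 4.23% of all windows. TEAD letters were in 15.6% and 11.8% of the members' windows, against 9.49% of all. A CpG ratio of at least 0.6, the usual mark of a CpG island, held for 56.2% of the higher members' windows and 58.8% of the lower members', against 75.4% of all. The E-box (CANNTG), whose loose letters can overlap the other motifs, was in 56.2% and 76.5% of the members' windows, against 53.7% of all. The CCAAT box was in 31.2% and 23.5%, against 33.2% of all, and the cAMP response element in 3.12% and 0%, against 2.46% of all. These are matches of letters in short windows, with no test, and they say nothing of binding.

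The secreted and matrix genes among the higher members held those furthest from control. CPA4 encodes carboxypeptidase A4, a secreted zinc protease that trims residues from the C terminus (GRCh38 chromosome 7, 130293134 to 130324180, plus strand). It stood at 41.6, 40.9 and 37.6 CPM in ATG7 KO, at 46.1, 44.1 and 45.3 CPM in ATG7/SQSTM1 KO, and at 5.41, 5.37 and 5.37 CPM in control. It had the largest difference of the 26 in both knockouts, log2 2.78 in ATG7 KO and 2.96 in ATG7/SQSTM1 KO. That its 6 knockout libraries lay above the 3 control libraries was required by the rule. CPA4 was the only carboxypeptidase A gene of those looked at (CPA1 to CPA5) to reach 1 CPM in a group mean. SULF1 (chromosome 8, 69466624 to 69660915, plus strand) is an extracellular endosulfatase that removes 6-O-sulfates from heparan sulfate and so alters growth factor binding at the cell surface. It had 56.8, 49.6 and 50.0 CPM in ATG7 KO, 41.9, 45.3 and 44.2 CPM in ATG7/SQSTM1 KO and 9.04, 9.42 and 8.87 CPM in control. Its paralog SULF2 went the other way in level, with means of 57.1 CPM in ATG7 KO, 62.4 CPM in ATG7/SQSTM1 KO and 92.1 CPM in control.

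PLAU, which encodes urokinase, another secreted protease, was not alike in the knockouts. It averaged 61.3 ± 2.5 CPM in ATG7 KO, 6.96 ± 0.65 CPM in ATG7/SQSTM1 KO and 21.3 ± 1.7 CPM in control (SD, n = 3 each). PLAU was thus higher than control in ATG7 KO (log2 change 1.57, edgeR adjusted p = 4.79e-15), lower than control in ATG7/SQSTM1 KO (−1.61, edgeR adjusted p = 3.78e-13), and lower in ATG7/SQSTM1 KO than in ATG7 KO (−3.18, edgeR adjusted p = 5.61e-19). ADAM22, TIMP1 and MMP2 ranked above PLAU in this list by edgeR p against control, and their values are not given here. PLAU alone is therefore no guide to the list. Of 40 tested proteases and inhibitors that are not members, edgeR called 21 higher and 10 lower in ATG7 KO, and 16 higher and 12 lower in ATG7/SQSTM1 KO. Here and for the lists below, members are left out, the counts carry no test of the list, and they stand beside the shares of all tested genes given above.

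COL1A2, the alpha 2 chain of type I collagen, averaged 9.66 ± 1.5 CPM in ATG7 KO, 10.1 ± 0.40 CPM in ATG7/SQSTM1 KO and 4.21 ± 0.33 CPM in control. Its partner in the type I trimer, COL1A1, is no member. It averaged 97.1 ± 6.3 CPM in ATG7 KO, 35.2 ± 1.6 CPM in ATG7/SQSTM1 KO and 19.9 ± 1.0 CPM in control, and it was lower in ATG7/SQSTM1 KO than in ATG7 KO (log2 change −1.50, edgeR adjusted p = 3.06e-15). COL3A1, the fibrillar collagen that forms homotrimers, averaged 321 ± 6.7, 151 ± 6.9 and 75.8 ± 1.6 CPM in ATG7 KO, ATG7/SQSTM1 KO and control, and it too was lower in ATG7/SQSTM1 KO than in ATG7 KO (log2 change −1.13, edgeR adjusted p = 5.07e-17). EFEMP1, which encodes the elastic fibre protein fibulin-3, averaged 25.7 ± 0.94 CPM in ATG7 KO, 28.7 ± 0.35 CPM in ATG7/SQSTM1 KO and 11.9 ± 0.59 CPM in control. Among 25 other tested collagens, edgeR called 16 higher and 3 lower in ATG7 KO, and 11 higher and 7 lower in ATG7/SQSTM1 KO. Among 31 other matrix glycoproteins and proteoglycans it called 17 higher and 8 lower in ATG7 KO, and 18 higher and 3 lower in ATG7/SQSTM1 KO. Of these, POSTN, a matricellular protein of collagen-rich tissue, averaged 80.0 ± 1.5 CPM in ATG7 KO, 121 ± 2.1 CPM in ATG7/SQSTM1 KO and 16.8 ± 0.92 CPM in control, and DCN, the small proteoglycan decorin, averaged 20.8 ± 1.1, 32.8 ± 1.2 and 7.57 ± 0.12 CPM in the same order. Both rose in both knockouts (POSTN by a log2 change of 2.29 with an edgeR adjusted p of 2.56e-20 in ATG7 KO, and of 2.86 with 1.42e-21 in ATG7/SQSTM1 KO) and rose further in ATG7/SQSTM1 KO than in ATG7 KO (POSTN 0.56, edgeR adjusted p = 1.80e-11). FN1, the fibronectin gene, stood on opposite sides of control, at 391 ± 15 CPM in ATG7 KO, 71.1 ± 1.3 CPM in ATG7/SQSTM1 KO and 138 ± 7.0 CPM in control.

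COL1A2, COL1A1, COL3A1, POSTN and DCN are also on the list of 12 fibroblast markers. The summed level of that list ran from 739 to 774 CPM in ATG7 KO, from 466 to 483 CPM in ATG7/SQSTM1 KO and from 208 to 227 CPM in control. Of 10 tested markers of that list other than COL1A2, edgeR called 5 higher and 0 lower in ATG7 KO. It called 6 higher and 1 lower in ATG7/SQSTM1 KO. THY1, PDGFRB and FAP were picked from the list with no rule set beforehand. Their means lay below control in ATG7/SQSTM1 KO, unlike the sum of the list, so they do not stand for it. THY1 averaged 0.162 CPM in ATG7 KO, 0.0321 CPM in ATG7/SQSTM1 KO and 0.0977 CPM in control. In the same order, PDGFRB averaged 1.06, 0.618 and 0.851 CPM, and FAP 3.98, 2.29 and 3.89 CPM. The rest of the list is not given as fibroblast markers gene by gene. None of the 12 was at 0 in all libraries of a group. In bulk RNA a change in the share of some cells and a change in RNA per cell cannot be told apart, and the part of the fibroblast markers in the members' values was not tested.

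Cell contact and cytoskeleton genes made up a second group. KRT8 and KRT18 encode the type II and type I keratins that pair into the intermediate filaments of simple epithelium. KRT8 (chromosome 12, 52897187 to 52949954, minus strand) stood at 92.5, 98.7 and 97.2 CPM in ATG7 KO, at 82.6, 71.1 and 73.9 CPM in ATG7/SQSTM1 KO, and at 17.5, 18.0 and 18.9 CPM in control. KRT18 (chromosome 12, 52948871 to 52952901, plus strand) stood at 68.3, 67.9 and 70.2 CPM in ATG7 KO, at 49.1, 46.5 and 53.1 CPM in ATG7/SQSTM1 KO, and at 18.8, 18.7 and 17.9 CPM in control. For both genes each ATG7 KO library lay above each ATG7/SQSTM1 KO library, and each of those above control. Per kilobase of exon, KRT18 had 21.4, 15.4 and 5.74 CPM in ATG7 KO, ATG7/SQSTM1 KO and control, and KRT8 had 14.0, 11.0 and 2.64 CPM. KRT18 was 0.47 below its ATG7 KO level in ATG7/SQSTM1 KO on the log2 scale, the member nearest to the limit of 0.5 on the higher side, and it was not kept when TMM or DESeq2 factors replaced library totals.

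The annotated exons of the 2 keratin genes share 525 bases on opposite strands, which is 16.3% of KRT18 and 7.63% of KRT8. Whether counting used strand is not given in the sources used here, so reads in that stretch could have gone to either gene. Their processed copies did not follow them. The 28 KRT8 pseudogenes with counts summed to 7.15 CPM in ATG7 KO, 6.88 CPM in ATG7/SQSTM1 KO and 6.91 CPM in control, and the 25 KRT18 pseudogenes to 1.24, 1.43 and 1.19 CPM. Other keratins showed other patterns in their mean levels. KRT80 stood at 23.6 CPM in ATG7 KO, 11.6 CPM in ATG7/SQSTM1 KO and 6.04 CPM in control, KRT19 at 1.37, 1.19 and 1.79 CPM, and KRT10 at 27.1, 18.3 and 21.2 CPM. The summed level of 12 keratinocyte and airway markers ran from 9.72 to 10.1 CPM in ATG7 KO, from 3.15 to 3.30 CPM in ATG7/SQSTM1 KO and from 3.23 to 4.18 CPM in control, with 11 of the 12 under 1 CPM in each group. Their part in the keratin values was not tested.

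**Figure D3:**
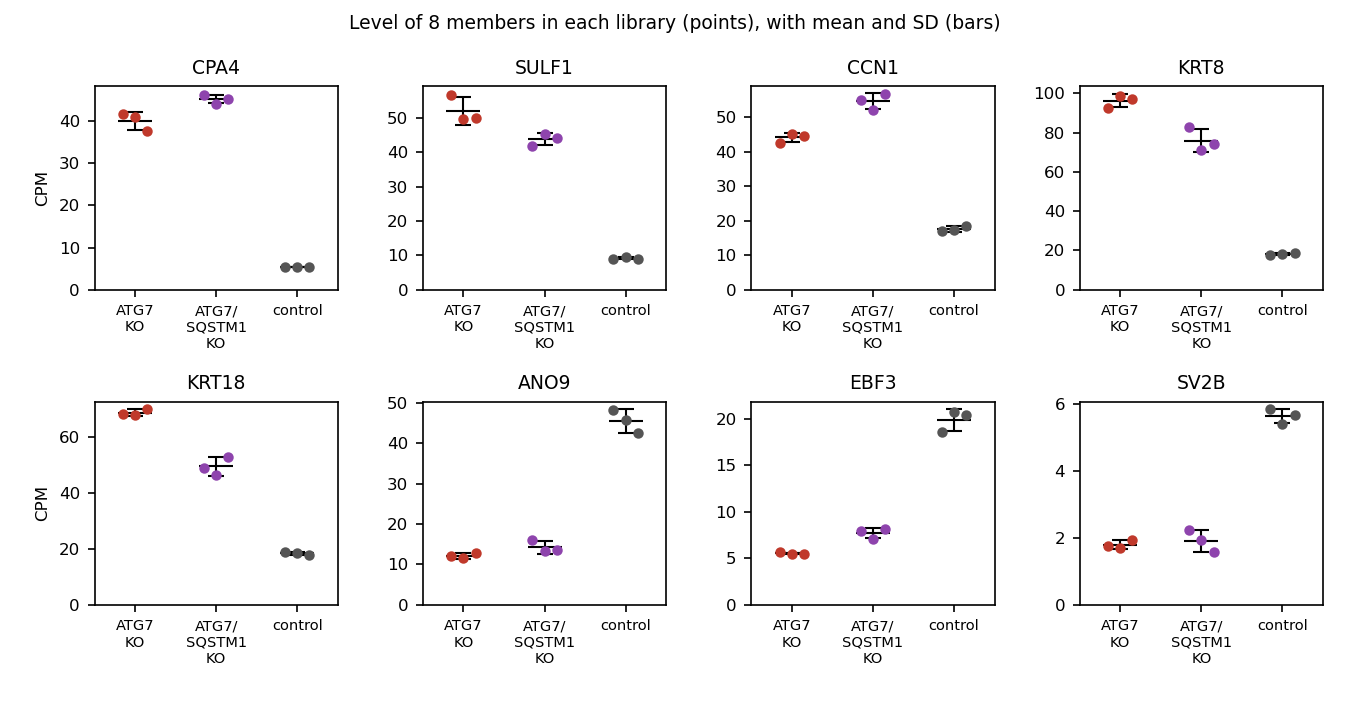
CPM in each library (points) for 8 members, with the group mean and SD as bars and each axis starting at 0. The 5 higher members CPA4, SULF1, CCN1, KRT8 and KRT18 lie above control in each of the 6 knockout libraries, and the 3 lower members ANO9, EBF3 and SV2B lie below control in each of them. The rule required this of every member, so it is not a result.

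CDH1, which encodes E-cadherin, the adhesion molecule of epithelial junctions, had 8.69, 6.84 and 7.96 CPM in ATG7 KO, 7.45, 7.83 and 7.77 CPM in ATG7/SQSTM1 KO and 2.37, 2.58 and 2.75 CPM in control. Its knockout groups overlapped, with a log2 difference of −0.03 between them. CDH2, which encodes N-cadherin, averaged 13.3 ± 0.85 CPM in ATG7 KO, 37.7 ± 2.2 CPM in ATG7/SQSTM1 KO and 55.1 ± 0.57 CPM in control. It fell in both knockouts (log2 change −2.01, edgeR adjusted p = 9.48e-18 in ATG7 KO, and −0.54, edgeR adjusted p = 1.49e-08 in ATG7/SQSTM1 KO), by unlike amounts (1.47 between the knockouts, edgeR adjusted p = 2.57e-15). Of 22 tested cadherins and related genes other than CDH1, edgeR called 3 higher and 13 lower in ATG7 KO, and 8 higher and 5 lower in ATG7/SQSTM1 KO. Of 22 tested genes of epithelial-mesenchymal transition other than CDH1, KRT8 and KRT18, it called 8 higher and 4 lower in ATG7 KO, and 6 higher and 5 lower in ATG7/SQSTM1 KO.

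UTRN, MYADM, MALL and ARHGAP29 complete this group. UTRN encodes utrophin, which links actin to the dystroglycan complex at the membrane, and averaged 9.40 ± 1.5 CPM in ATG7 KO, 7.35 ± 1.4 CPM in ATG7/SQSTM1 KO and 3.32 ± 0.39 CPM in control. MALL, a lipid raft protein of the MAL family, averaged 4.62 ± 0.075 CPM in ATG7 KO, 5.79 ± 0.72 CPM in ATG7/SQSTM1 KO and 1.60 ± 0.51 CPM in control. MYADM, another multi-span membrane protein, averaged 12.7 ± 0.39, 10.4 ± 1.0 and 4.94 ± 0.61 CPM in ATG7 KO, ATG7/SQSTM1 KO and control. ARHGAP29, a GTPase activating protein, averaged 27.8 ± 1.8, 21.9 ± 1.4 and 10.7 ± 0.39 CPM and sat on the 2-fold limit in ATG7/SQSTM1 KO, at log2 1.00.

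CCN1 and ANKRD1, with CPA4, are on the list of genes known to be raised by YAP and TAZ, the coactivators that the Hippo pathway restrains and that act through TEAD factors. CCN1 encodes a matricellular protein that binds integrins (chromosome 1, 85580761 to 85583962, plus strand). It stood at 42.5, 45.1 and 44.6 CPM in ATG7 KO, at 54.8, 52.1 and 56.7 CPM in ATG7/SQSTM1 KO, and at 16.9, 17.3 and 18.4 CPM in control. CCN1 was thus highest in the double knockout. ANKRD1, an ankyrin repeat protein of muscle and a common readout of YAP activity, had 8.16, 7.53 and 9.31 CPM in ATG7 KO, 8.06, 8.04 and 8.51 CPM in ATG7/SQSTM1 KO and 2.80, 3.31 and 2.49 CPM in control, and its knockout groups overlapped.

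Of 20 other tested YAP and TAZ targets, edgeR called 13 higher and 5 lower in ATG7 KO, and 12 higher and 3 lower in ATG7/SQSTM1 KO. Their median log2 change was 0.44 in ATG7 KO and 0.22 in ATG7/SQSTM1 KO, beside −0.02 and −0.01 over all tested genes. CRIM1, a membrane protein that binds bone morphogenetic proteins, rose in both, averaging 46.6 ± 0.28 CPM in ATG7 KO, 43.4 ± 0.96 CPM in ATG7/SQSTM1 KO and 28.6 ± 0.87 CPM in control (log2 change 0.75 in ATG7 KO with an edgeR adjusted p of 2.14e-12, and 0.61 in ATG7/SQSTM1 KO with 3.38e-10), and it was slightly lower in ATG7/SQSTM1 KO than in ATG7 KO (−0.14, edgeR adjusted p = 0.00520). The receptor kinase AXL averaged 54.0 ± 3.6 CPM in ATG7 KO, 21.7 ± 1.2 CPM in ATG7/SQSTM1 KO and 18.1 ± 0.95 CPM in control, a log2 change of 1.62 in ATG7 KO (edgeR adjusted p = 1.31e-15) and of 0.27 in ATG7/SQSTM1 KO (edgeR adjusted p = 0.00156). TNS3, a focal adhesion protein, averaged 136 ± 0.31, 68.0 ± 0.88 and 57.2 ± 3.3 CPM in ATG7 KO, ATG7/SQSTM1 KO and control. DLC1, another GTPase activating protein, averaged 4.27 ± 0.079, 10.0 ± 0.77 and 13.8 ± 0.49 CPM and fell in both (log2 change −1.65, edgeR adjusted p = 1.15e-12, and −0.46, edgeR adjusted p = 1.45e-04). CCN2, the closest relative of CCN1 on the list, was at a low level, 2.10 CPM in ATG7 KO, 2.80 CPM in ATG7/SQSTM1 KO and 1.60 CPM in control, and was not called in ATG7 KO (edgeR adjusted p = 0.0505) but was called in ATG7/SQSTM1 KO (0.00116). The difference of 0.37 between the knockouts did not pass either (edgeR adjusted p = 0.0744).

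Signalling molecules formed the next group, from ligands to transcription factors. BMP5, a bone morphogenetic protein, averaged 15.3 ± 0.94 CPM in ATG7 KO, 15.9 ± 1.0 CPM in ATG7/SQSTM1 KO and 6.32 ± 0.63 CPM in control. CX3CL1, the membrane-bound chemokine fractalkine, averaged 37.5 ± 3.4, 33.0 ± 1.3 and 16.1 ± 0.25 CPM in ATG7 KO, ATG7/SQSTM1 KO and control. FLT1, a receptor for vascular endothelial growth factor, had 14.2, 14.0 and 12.1 CPM in ATG7 KO, 11.1, 8.94 and 12.4 CPM in ATG7/SQSTM1 KO and 4.43, 5.34 and 5.53 CPM in control. FLT1 is also made by endothelial cells, and 10 other endothelial markers summed to 5.56 to 6.74 CPM in ATG7 KO, 2.25 to 3.42 CPM in ATG7/SQSTM1 KO and 3.63 to 4.06 CPM in control. These markers lay above control in ATG7 KO and below it in ATG7/SQSTM1 KO, and their part in the FLT1 values was not tested. NPR3, the clearance receptor for natriuretic peptides, averaged 5.84 ± 0.11, 4.76 ± 0.15 and 1.48 ± 0.093 CPM in ATG7 KO, ATG7/SQSTM1 KO and control, while the signalling receptors NPR1 and NPR2 stayed between 1.89 and 3.05 CPM in every group mean. ADGRL2, the adhesion G protein-coupled receptor latrophilin 2, averaged 53.8 ± 1.1, 47.5 ± 0.90 and 19.6 ± 0.31 CPM.

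ERRFI1, also called MIG6, is a feedback inhibitor of the EGF receptor and had the highest level of all 46 members in CPM. It averaged 161 ± 3.9 CPM in ATG7 KO, 149 ± 8.8 CPM in ATG7/SQSTM1 KO and 65.8 ± 1.5 CPM in control. EGR1, an immediate early transcription factor, stood at 45.1, 48.5 and 47.2 CPM in ATG7 KO, at 46.9, 59.8 and 59.4 CPM in ATG7/SQSTM1 KO, and at 17.7, 20.2 and 18.4 CPM in control. TSHZ2, a teashirt zinc finger factor, averaged 7.39 ± 0.24, 6.98 ± 0.27 and 2.64 ± 0.40 CPM in ATG7 KO, ATG7/SQSTM1 KO and control, whereas TSHZ1 averaged 21.3, 29.5 and 29.5 CPM.

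The lists around these genes were mixed. Of 24 tested AP-1 and immediate early genes other than EGR1, edgeR called 12 higher and 6 lower in ATG7 KO, and 10 higher and 1 lower in ATG7/SQSTM1 KO. IER3, an early response gene, was called higher in both (means 89.4 ± 2.3, 68.7 ± 5.0 and 36.0 ± 2.2 CPM in ATG7 KO, ATG7/SQSTM1 KO and control), and JUN was lower in ATG7 KO (34.6 ± 0.95 CPM) and higher in ATG7/SQSTM1 KO (77.3 ± 2.7 CPM) than in control (62.2 ± 0.41 CPM). Of 40 TGF-beta and BMP pathway genes that are not members, 14 were called higher and 18 lower in ATG7 KO, and 16 higher and 6 lower in ATG7/SQSTM1 KO. Of 44 growth factor receptor kinases other than FLT1, 14 were called higher and 22 lower in ATG7 KO, and 14 higher and 9 lower in ATG7/SQSTM1 KO. RET, the receptor of the GDNF family, averaged 13.5 ± 0.087 CPM in ATG7 KO, 3.88 ± 0.36 CPM in ATG7/SQSTM1 KO and 1.35 ± 0.39 CPM in control and failed the limit on the distance between knockouts.

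**Figure D4:**
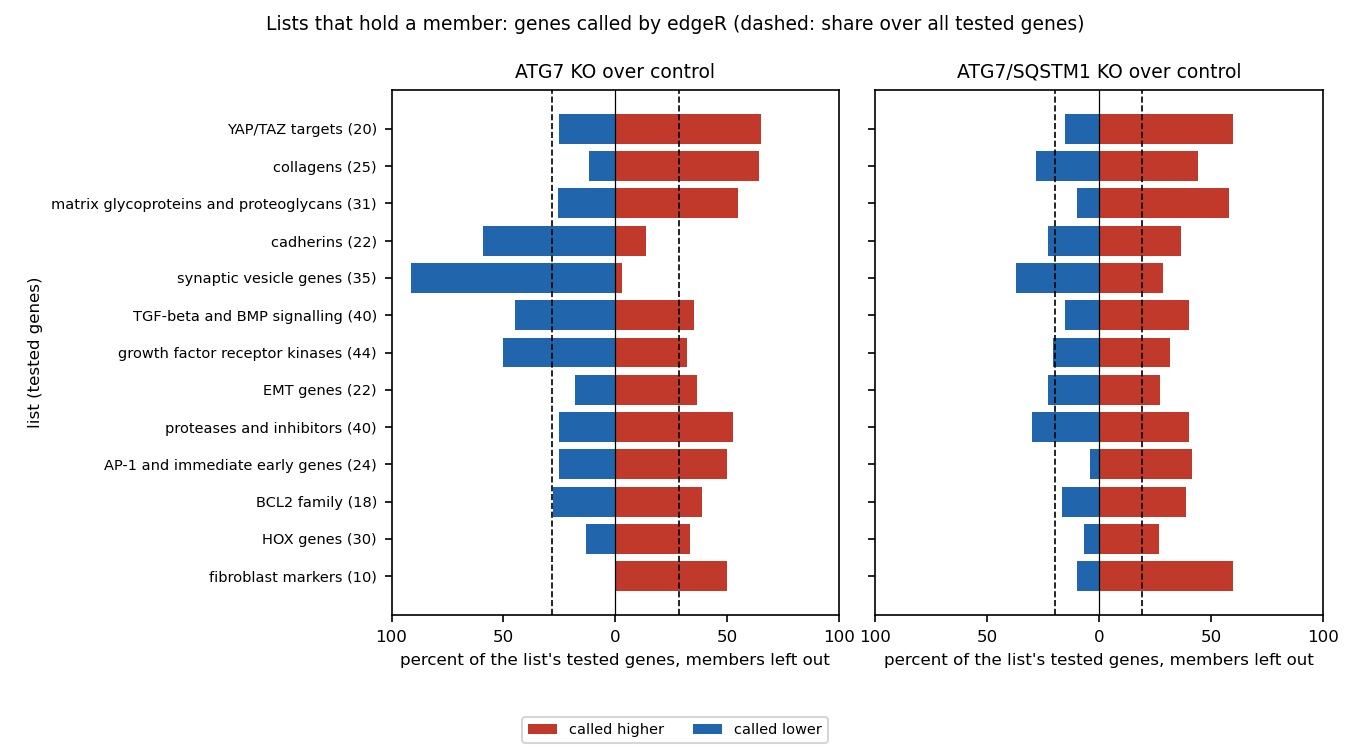
Percentage of each list's tested genes, members left out, that edgeR called higher (red, to the right) or lower (blue, to the left) than control in ATG7 KO and in ATG7/SQSTM1 KO; dashed lines mark the shares over all 18847 tested genes. Synaptic vesicle genes and cadherins were mostly lower in ATG7 KO and were divided in ATG7/SQSTM1 KO, while YAP/TAZ targets and matrix genes were called higher more often than lower in both.

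Among enzymes and metal-binding proteins, PYGM, the muscle form of glycogen phosphorylase, averaged 15.2 ± 0.58 CPM in ATG7 KO, 12.8 ± 0.39 CPM in ATG7/SQSTM1 KO and 3.54 ± 0.21 CPM in control. The liver form PYGL was far more abundant and near flat, at 376, 402 and 375 CPM, as was the brain form PYGB at 76.4, 82.1 and 84.0 CPM. PADI2, which converts arginine in proteins to citrulline, averaged 18.0 ± 0.71, 18.5 ± 0.65 and 6.66 ± 0.19 CPM in ATG7 KO, ATG7/SQSTM1 KO and control, and its relative PADI3 reached at most 1.26 CPM.

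FADS2 encodes the delta-6 desaturase that starts the synthesis of long polyunsaturated fatty acids (chromosome 11, 61792980 to 61867354, plus strand). It had 43.6, 44.4 and 47.5 CPM in ATG7 KO, 54.2, 57.3 and 56.3 CPM in ATG7/SQSTM1 KO and 18.9, 18.9 and 18.8 CPM in control, and the double knockout was the highest group with no overlap. FADS1, the delta-5 desaturase next to it, averaged 77.4, 97.2 and 73.2 CPM in ATG7 KO, ATG7/SQSTM1 KO and control. It was called higher by edgeR in both, by log2 0.08 in ATG7 KO and 0.41 in ATG7/SQSTM1 KO on the scale of CPM + 0.5, under the 2-fold limit. Their exons share 490 bases on opposite strands, 4.44% of FADS2. MT2A, a metallothionein that binds zinc and copper, had 72.3, 76.3 and 78.4 CPM in ATG7 KO, 54.5, 57.5 and 66.1 CPM in ATG7/SQSTM1 KO and 29.4, 27.5 and 30.9 CPM in control. MT1X averaged 27.4, 39.6 and 18.5 CPM and MT1G 1.75, 4.39 and 1.32 CPM in the same order, so these relatives were highest in the double knockout and MT2A in ATG7 KO. Metallothionein genes are near-identical in sequence, and how the counting placed reads that fit several of them is not given in the sources used here.

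**Figure D5:**
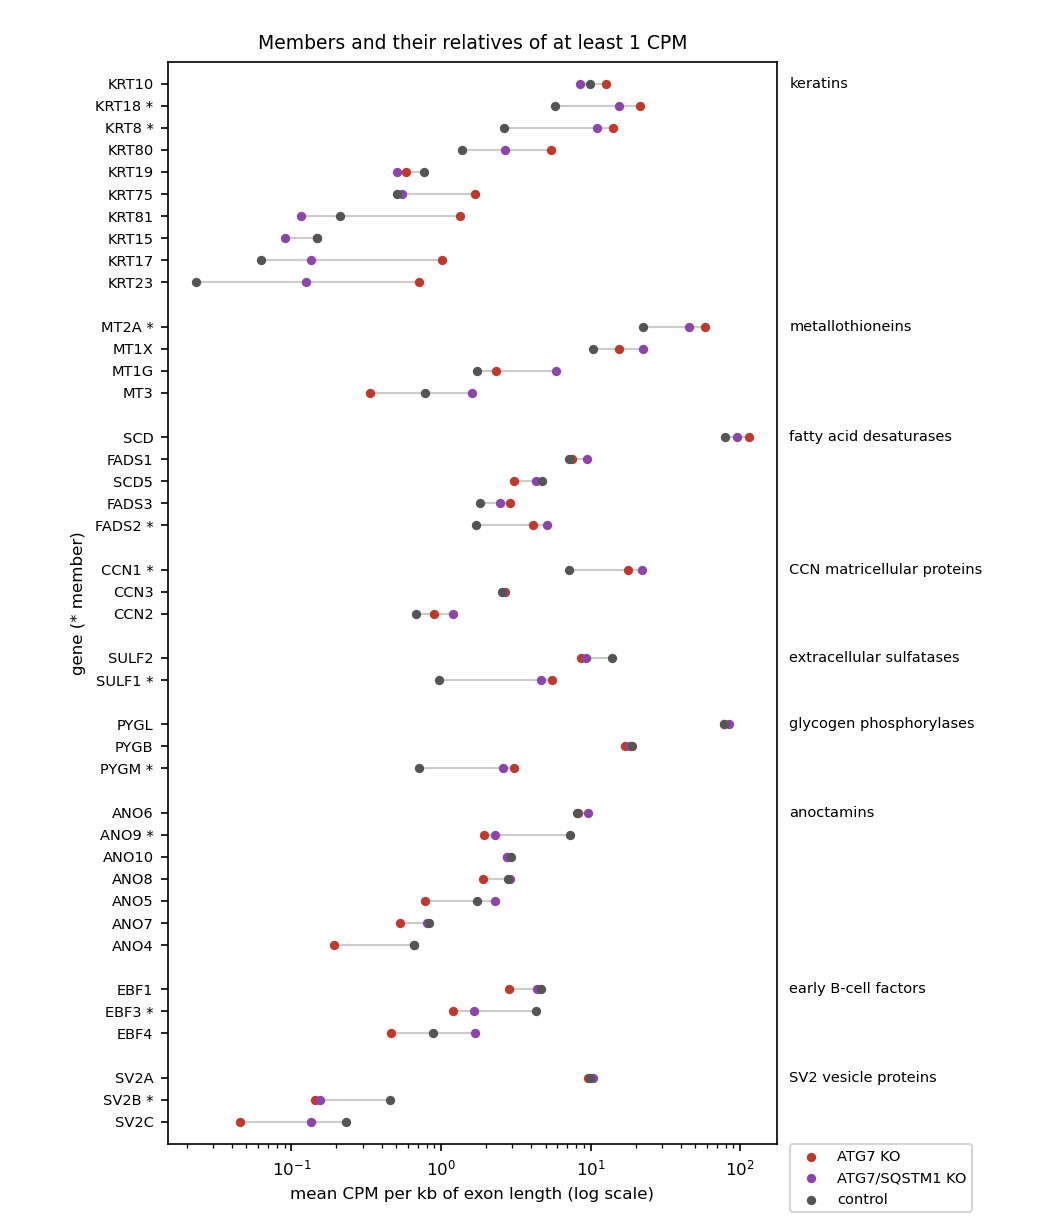
Mean CPM per kilobase of exon, on a log scale, for members (starred) and their relatives of at least 1 CPM, with ATG7 KO in red, ATG7/SQSTM1 KO in purple and control in grey. For SULF1, PYGM, CCN1 and EBF3 both knockout points lie apart from control while those of relatives such as PYGL, CCN3 and EBF1 lie closer to it or on the other side. CCN2 lies above control in both knockouts, as CCN1 does, but by less (log2 0.31 in ATG7 KO and 0.65 in ATG7/SQSTM1 KO).

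Among the lower members, those of neurons and secretory cells came to a small set. SV2B encodes a glycoprotein of synaptic vesicles that takes part in regulated secretion. It had 1.75, 1.70 and 1.94 CPM in ATG7 KO, 2.22, 1.94 and 1.57 CPM in ATG7/SQSTM1 KO and 5.84, 5.41 and 5.66 CPM in control. SV2A, the widely expressed form, averaged 46.2, 49.7 and 47.5 CPM in ATG7 KO, ATG7/SQSTM1 KO and control, and SV2C averaged 0.545, 1.63 and 2.80 CPM. Of 35 other tested synaptic vesicle genes, edgeR called 1 higher and 32 lower in ATG7 KO, but 10 higher and 13 lower in ATG7/SQSTM1 KO. RIMS3, an active zone protein, shows this split, with 158 ± 0.55 CPM in ATG7 KO, 486 ± 12 CPM in ATG7/SQSTM1 KO and 431 ± 2.8 CPM in control (log2 change −1.41, edgeR adjusted p = 2.09e-20, and 0.18, edgeR adjusted p = 5.88e-06). STX1A, the plasma membrane syntaxin of exocytosis, fell in both (15.3 ± 1.1, 28.2 ± 0.76 and 39.8 ± 0.77 CPM), by more in ATG7 KO (log2 change 0.84 between the knockouts, edgeR adjusted p = 3.30e-11).

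EBF3, a helix-loop-helix transcription factor of neural development, had 5.64, 5.50 and 5.46 CPM in ATG7 KO, 7.98, 7.07 and 8.13 CPM in ATG7/SQSTM1 KO and 18.6, 20.8 and 20.4 CPM in control. Each ATG7 KO library was below each ATG7/SQSTM1 KO library. Its paralog EBF1 averaged 17.5 CPM in ATG7 KO, 27.2 CPM in ATG7/SQSTM1 KO and 28.6 CPM in control, and EBF4 averaged 1.73, 6.24 and 3.30 CPM. FSTL5, a secreted follistatin-like protein, averaged 3.11 ± 0.83, 4.25 ± 0.89 and 9.93 ± 0.14 CPM in ATG7 KO, ATG7/SQSTM1 KO and control. C2CD4A, a C2 domain protein studied in pancreatic beta cells, averaged 2.80 ± 0.39, 2.25 ± 0.081 and 8.07 ± 1.0 CPM. MRAP2, an accessory protein of the melanocortin receptors, averaged 4.20 ± 0.21, 4.54 ± 0.19 and 10.2 ± 0.49 CPM, while MC1R, the receptor of that family with the highest level here, averaged 8.36, 9.74 and 11.5 CPM.

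HOXB9, a homeobox factor, had 1.44, 1.83 and 1.69 CPM in ATG7 KO, 0.906, 1.21 and 1.06 CPM in ATG7/SQSTM1 KO and 5.81, 5.20 and 5.27 CPM in control. It was the lower member nearest to the limit on the distance between knockouts, and it was not kept with DESeq2 size factors. HOXB7, whose annotated span overlaps HOXB9 with no shared exon bases, averaged 1.67, 1.08 and 1.90 CPM in ATG7 KO, ATG7/SQSTM1 KO and control. HOXB3 of the same cluster averaged 4.44, 1.62 and 3.43 CPM. Both HOXB7 and HOXB3 were called lower by edgeR in ATG7/SQSTM1 KO, while in ATG7 KO HOXB3 was called higher and HOXB7 was not called. Of 30 other tested HOX genes, edgeR called 10 higher and 4 lower in ATG7 KO, and 8 higher and 2 lower in ATG7/SQSTM1 KO. Their median log2 change was 0.02 in ATG7 KO and 0.14 in ATG7/SQSTM1 KO.

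HRK encodes a BH3-only protein that promotes cell death by binding BCL2 and BCL-XL. It had 2.15, 2.26 and 1.94 CPM in ATG7 KO, 2.43, 2.70 and 2.41 CPM in ATG7/SQSTM1 KO and 7.28, 6.84 and 6.18 CPM in control, with both knockouts well below control. Of 18 other tested BCL2 family genes, edgeR called 7 higher and 5 lower in ATG7 KO, which became 5 higher and 7 lower with library totals alone, and 7 higher and 3 lower in ATG7/SQSTM1 KO. BAX, the effector of mitochondrial permeabilisation, averaged 79.6 ± 4.4, 60.5 ± 1.7 and 51.2 ± 1.0 CPM in ATG7 KO, ATG7/SQSTM1 KO and control and rose in both (log2 change 0.68, edgeR adjusted p = 9.72e-12, and 0.25, edgeR adjusted p = 8.17e-05).

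Membrane proteins and motors completed the named lower members. ANO9, a member of the anoctamin family of ion channels and lipid scramblases, was the most abundant of the 20 in control (chromosome 11, 417933 to 442011, minus strand). It stood at 12.0, 11.5 and 12.9 CPM in ATG7 KO, at 16.1, 13.2 and 13.5 CPM in ATG7/SQSTM1 KO, and at 48.3, 45.8 and 42.4 CPM in control. ANO6, the most abundant anoctamin per length, averaged 67.9 CPM in ATG7 KO, 78.8 CPM in ATG7/SQSTM1 KO and 66.8 CPM in control, and ANO5 averaged 5.93, 17.3 and 13.0 CPM. SLC22A6, the organic anion transporter OAT1 of the kidney tubule, averaged 1.63 ± 0.056, 1.36 ± 0.13 and 5.38 ± 0.33 CPM in ATG7 KO, ATG7/SQSTM1 KO and control. CD5, a surface glycoprotein of T cells, averaged 4.30 ± 0.29, 4.18 ± 0.45 and 12.0 ± 1.2 CPM. The T cell genes CD3E and CD3D were at 0 in every library, and the 15 blood cell markers summed to 10.8 to 11.9 CPM in ATG7 KO, 5.81 to 6.40 CPM in ATG7/SQSTM1 KO and 7.81 to 9.13 CPM in control.

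KIF19, a kinesin that limits the length of motile cilia in mice, averaged 1.53 ± 0.11 CPM in ATG7 KO, 2.23 ± 0.59 CPM in ATG7/SQSTM1 KO and 5.18 ± 0.86 CPM in control. SLAIN1, which acts at growing microtubule ends, averaged 8.77 ± 0.71, 12.3 ± 0.70 and 25.5 ± 1.1 CPM in ATG7 KO, ATG7/SQSTM1 KO and control. SOWAHA, an ankyrin repeat protein, averaged 6.75 ± 0.30, 5.67 ± 0.45 and 14.3 ± 1.2 CPM. SLAIN1 and SOWAHA lay close to the 2-fold limit, and SOWAHA was not kept with TMM or DESeq2 factors.

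The other 7 lower members are noncoding genes, a readthrough or genes listed under clone names, and several rest on single libraries. AP000459.3 had the lowest ATG7 KO level relative to control, at 0.705, 0.425 and 0.627 CPM in ATG7 KO, 1.05, 0.381 and 0.931 CPM in ATG7/SQSTM1 KO and 8.61, 9.66 and 9.19 CPM in control. ABHD14A-ACY1, a readthrough of ABHD14A and ACY1 that shares 78.7% of its exon bases with ACY1, averaged 0.371, 0.210 and 5.44 CPM in ATG7 KO, ATG7/SQSTM1 KO and control, but its control libraries stood at 3.17, 12.1 and 1.10 CPM. Without control replicate 2 its log2 difference was −1.60 in ATG7 KO and −1.89 in ATG7/SQSTM1 KO, against −2.77 and −3.06 with it. AC117378.1, whose exons share 61.6% of their bases with PRIM1 and 38.4% with NACA on the same strand, had 2.35, 0 and 0 CPM in ATG7 KO, 1.99, 0 and 0.225 CPM in ATG7/SQSTM1 KO and 3.87, 7.04 and 4.27 CPM in control. How the counting treated reads in overlapping genes is not given in the sources used here, so the values of both are uncertain.

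ENTPD1-AS1, an antisense gene of ENTPD1, had 9.60, 13.2 and 11.6 CPM in ATG7 KO, 7.86, 9.53 and 25.7 CPM in ATG7/SQSTM1 KO and 40.5, 29.8 and 34.6 CPM in control. Replicate 3 of ATG7/SQSTM1 KO was nearest to control, and without it the log2 difference in that knockout was −1.95 in place of −1.25. AL590133.2, which lies wholly within exons of CERS2 on the opposite strand, had 4.77, 6.87 and 5.58 CPM in ATG7 KO, 4.59, 5.16 and 6.68 CPM in ATG7/SQSTM1 KO and 10.2, 9.21 and 22.8 CPM in control. Without control replicate 3 it was −0.71 from control in ATG7 KO and −0.77 in ATG7/SQSTM1 KO, under the 2-fold limit. CERS2 itself averaged 1331, 1301 and 1788 CPM, and without strand its reads and those of AL590133.2 cannot be told apart. AC005747.1 averaged 1.30 ± 0.33, 1.38 ± 0.15 and 5.75 ± 0.44 CPM in ATG7 KO, ATG7/SQSTM1 KO and control, and AL353743.1 averaged 2.38 ± 0.19, 2.67 ± 0.41 and 5.97 ± 0.51 CPM.

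Position was not used by the rule. The 26 higher members lie on 13 chromosomes and the 20 lower members on 13, and KRT8 with KRT18 is the only pair of members within 100 kb of each other. Within 100 kb of the higher members, 65 other genes reached 1 CPM in a group, and none was past 2-fold in the same direction in both knockouts. Their median log2 difference from control was 0.10 in ATG7 KO and 0.05 in ATG7/SQSTM1 KO. This median hides the neighbours of CX3CL1 and MT2A on chromosome 16, which all lay above control in ATG7/SQSTM1 KO. Those of CX3CL1 ran from 0.59 (CIAPIN1) to 1.12 (DOK4), and those of MT2A from 0.80 (BBS2) to 1.43 (MT1G). In ATG7 KO the same genes ran from −0.79 (MT3) to 0.56 (MT1X). They were picked after their values were seen, and their link to the CX3CL1 and MT2A values was not tested. Of 65 genes of at least 1 CPM within 100 kb of the lower members, 2 were past 2-fold lower in both knockouts. Both sit beside a lower member with a clone name. Of all 12449 genes past the 5 CPM floor, 50 were 2-fold higher and 33 lower in both knockouts with the library order met. Counts this small among 65 genes are therefore not read as a result about neighbours. AP000459.2, beside AP000459.3, had no count in any of the 6 knockout libraries and 2.58, 2.02 and 2.30 CPM in control. AL353743.2, beside AL353743.1, averaged 1.70, 1.32 and 4.99 CPM in ATG7 KO, ATG7/SQSTM1 KO and control, just under the level floor of 5 CPM.

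Genes just outside the limits had values close to those just inside. On the fold limit, ARHGAP29 (1.000) and MT2A (1.008) were kept, while GDF15 (0.990) and SUCNR1 (0.986) were not. On the lower side SLAIN1 (1.025) and AL353743.1 (1.029) were kept, while MFAP4 (0.960) and RELN (0.921) were not, all as the smaller of the absolute log2 differences from control. On the distance between knockouts, KRT18 (0.469) and HOXB9 (0.467) were the furthest apart of those kept, and RSAD2 (0.558), SLC16A3 (0.595), CNTNAP2 (0.618) and LSAMP (0.711) the nearest of those left out. On the level floor, MALL (5.79 CPM) and NPR3 (5.84 CPM) were kept on the higher side with PDE4B (2.37 CPM) next below, and AC117378.1 (5.06 CPM) and KIF19 (5.18 CPM) were kept on the lower side with CTNND2 (4.08 CPM) among those left out.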

How the data were processed

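Total RNA of DMS273 cells was sequenced in 9 libraries, 3 per group, and the submitters' processing notes name HISAT2 and hg38. The deposited values are raw counts per gene, and the values give no sign of scaling by the authors. Missing cells (362598) were read as 0, and 1 unlabelled column was not used. No source used here names the counting program or says whether it used strand. Symbols are the files' own, and types, coordinates and exon lengths come from GENCODE 29. CPM is the count over the library total. The counts were also tested in R 4.3.3 with edgeR 4.0.16: filterByExpr (minimum count 10, 18847 genes), TMM scaling, a robust quasi-likelihood fit of all 9 libraries, and Benjamini-Hochberg adjustment over all tested genes; the script was tested on simulated data. The common biological coefficient of variation was 6.39%. Alternatives were other scalings, added CPM, limits of the rule, DESeq2 1.42.0, a replicate block and leaving out each library.

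The members and the gene lists were chosen with earlier results of these data known. All members are given but 1 higher member, which is counted and not reported here. Other genes were named by rule: up to 4 per list that holds a member, by the smallest edgeR p against control, and those beside a limit. Not every gene that this rule gave is printed, and no rule chose among them. Relatives of members and neighbours, CCN2, PADI3 and the marker genes among them, were chosen after the members' values were seen. The lists overlap: CPA4, CDH1, COL1A2 and several of the other genes named, such as AXL, FN1 and CDH2, are on more than 1 list. Log2 changes printed with an edgeR adjusted p, and the medians of the lists, are edgeR's own, from TMM-scaled counts. All other folds and log2 differences are on the scale of CPM + 0.5, which understates the difference of low genes.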

Additional observations from a re-analysis of the deposited data

How the results depend on the processing

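The number of members depended on the limits of the rule more than on the scaling. With TMM sizes 26 higher and 19 lower genes were kept, with DESeq2 size factors 26 and 17, with 0.1 CPM added 27 and 18, with 1 CPM added 20 and 16, and without the condition on library order 28 and 22. A level floor of 1 CPM gave 29 higher and 43 lower genes, and a floor of 10 CPM gave 20 and 8. A limit of 0.25 on the distance between knockouts gave 15 and 12, a limit of 1 gave 41 and 26, and no limit gave 50 and 33.

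Leaving out each library in turn gave 23 to 27 higher and 16 to 21 lower genes, and 18 of 26 higher and 9 of 20 lower members were kept each time. KRT18 was lost without ATG7/SQSTM1 KO replicate 3, EBF3 and HOXB9 without ATG7/SQSTM1 KO replicate 2, and COL1A2 without ATG7 KO replicate 1. Of 920 values of single members under other settings, 885 moved by less than the spread between libraries, 35 moved by more, and none changed direction. The 35 all came from other scalings or other added CPM. For values without 1 library, the spread still included that library, so a move smaller than it was nearly fixed in advance. These values therefore show no stability, and the shifts of ABHD14A-ACY1 and AL590133.2 given above are among the 885. The calls of edgeR numbered 10686 in ATG7 KO, 7281 in ATG7/SQSTM1 KO and 11395 between the knockouts, and 9939 to 10183, 6361 to 6538 and 10748 to 10819 when each library was left out. With DESeq2 they numbered 10393, 7087 and 11099.

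Replicate numbers do not pair the libraries: deviations of same-numbered libraries from their group means correlated between −0.06 and 0.02. With a replicate block, edgeR called 10564 genes in ATG7 KO, 7137 in ATG7/SQSTM1 KO and 11262 between the knockouts. Depth limits ABHD14A-ACY1, which averaged 0.371 CPM in ATG7 KO and 0.210 CPM in ATG7/SQSTM1 KO.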

Other observations

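Genes that left the rule only because the knockouts differed from each other were of several kinds. STEAP4, a metalloreductase, averaged 18.8 CPM in ATG7 KO, 6.45 CPM in ATG7/SQSTM1 KO and 0.499 CPM in control. AQP1, a water channel, averaged 15.6, 7.51 and 0.825 CPM in ATG7 KO, ATG7/SQSTM1 KO and control, and H19, an imprinted noncoding RNA, averaged 37.5, 12.4 and 2.41 CPM. The complement genes C4A and C4B, which are near-identical copies and so uncertain one by one, averaged 81.8 and 66.2 CPM in ATG7 KO, 41.0 and 40.9 CPM in ATG7/SQSTM1 KO and 18.3 and 15.5 CPM in control. For each of these the double knockout lay between ATG7 KO and control. CNTNAP2, a neurexin-like adhesion protein, was lower in both and further from control in the double knockout, at 14.8 CPM in ATG7 KO, 9.49 CPM in ATG7/SQSTM1 KO and 44.5 CPM in control. PRRX1, a homeobox factor of mesenchyme, was lower in both and further from control in ATG7 KO, at 5.32, 9.32 and 20.1 CPM. These genes were chosen after their values were seen and carry no test here.

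The condition on library order alone removed 2 higher and 2 lower genes. Of these, HNRNPA1L2, a retrocopy of HNRNPA1, stood at 2.05, 5.14 and 12.9 CPM in ATG7 KO, at 2.78, 2.18 and 14.3 CPM in ATG7/SQSTM1 KO and at 0.953, 0.907 and 3.75 CPM in control, so its libraries differed more within a group than between groups.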
